A study of Drosophila melanogaster with 4 samples.

Results

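Complex I, the NADH dehydrogenase of the respiratory chain, is encoded partly by the mitochondrial genome of the fruit fly Drosophila melanogaster, through the 7 ND genes mt:ND1, mt:ND2, mt:ND3, mt:ND4, mt:ND4L, mt:ND5 and mt:ND6. These genes were taken as a set by their names, out of 13 annotated mitochondrial protein-coding genes, and all lines on them in the deposited lists of transcript errors were used. The series compared flies overexpressing the E423P form of the mitochondrial RNA polymerase (E423P) with flies overexpressing the wild-type enzyme (WT), both aged 2 weeks, to ask whether transcription errors differ. Of the 4 samples, 2 are E423P and 2 are WT, and an error list was analysed for 1 library of each. Both groups therefore carry an overexpressed polymerase, and neither is an unmodified fly. The driver of the overexpression, the number of animals pooled and the presence of the flies' own enzyme are not given in the sources used here.

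Complex I takes electrons from NADH, passes them to ubiquinone and pumps protons across the inner mitochondrial membrane. All 7 ND proteins sit in its membrane arm. ND2, ND4 and ND5 are antiporter-like proton-pumping subunits, ND1 lies at the quinone site where the membrane arm meets the peripheral arm, and ND3, ND4L and ND6 are small membrane subunits between these. The mitochondrial genome is transcribed by a dedicated RNA polymerase, the kind of enzyme that was overexpressed here.

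The unit of measurement was a listed error: a base that differs from the reference at a position of a transcript, with the depth (number of covering bases) at that position. A change is written as the listed reference base, the position along the transcript and the listed base, as in C368T. Whether positions start at 0 or 1, and whether bases are given in transcript orientation, is not stated. The E423P library covered 320614 bases in total and held 51 listed errors, and the WT library covered 1345044 bases and held 255. Each genotype had 1 library, so every test compares 2 libraries and not the genotypes, and intervals cover counting error only, with no molecular identifiers to show that errors at a position come from separate molecules.

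Of the 7 ND genes, 3 had a listed error in the E423P library (mt:ND1, mt:ND4L and mt:ND5) and 4 in the WT library (the same 3 and mt:ND4). The 4 listed genes are all on the minus strand of the mitochondrial genome. The 3 without any listed error, mt:ND2 (FBgn0013680, BDGP6 mitochondrion_genome 240 to 1263), mt:ND3 (FBgn0013681, 5608 to 5961) and mt:ND6 (FBgn0013685, 9971 to 10495), are on the plus strand. Whether these 3 were covered deeply enough to be searched is not stated, so their counts of 0 set no limit on their error rate. The other 5 genes with listed errors, mt:CoI, mt:CoII, mt:CoIII, mt:ATPase6 and mt:Cyt-b, are all on the plus strand, so a difference between ND transcripts and these transcripts cannot be told apart from a difference between strands.

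ND transcripts carried a smaller part of the listed errors in the E423P library than in the WT library, by counts that stayed within counting error. ND transcripts held 3 of the 51 errors in E423P, a share of 5.88% (95% Wilson interval 2.02 to 15.9), and 42 of the 255 errors in WT, a share of 16.5% (12.4 to 21.5). The odds ratio was 0.318, with a 95% exact interval of 0.0605 to 1.06, and the difference did not pass the threshold of 0.05 (two-sided Fisher's exact test, p = 0.0528, adjusted p = 0.106 over 6 single tests). The RNA came from mitochondria of whole flies. A change in which tissues contributed and a change in RNA per mitochondrion thus cannot be told apart. RNA amounts were not analysed here, and a share of listed errors measures neither change.

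Each of the 4 ND transcripts had a lower share in E423P than in WT, and none passed the test alone. mt:ND5 held 1 of 51 errors in E423P (1.96%) and 23 of 255 in WT (9.02%), an odds ratio of 0.202 (95% exact interval 0.0048 to 1.31; two-sided Fisher's exact test, p = 0.148, and adjusted p = 0.490 over the 9 listed transcripts). mt:ND1 held 1 error in E423P (1.96%) and 8 in WT (3.14%). mt:ND4L held 1 error in E423P (1.96%) and 6 in WT (2.35%). mt:ND4 held 0 errors in E423P and 5 in WT (1.96%). The Fisher's exact test called 0 of these 4 ND transcripts at an adjusted p of 0.05, against 0% of all 9 transcripts, and 0 of 4 at an unadjusted p of 0.05, against 11.1% of all 9. A lower share in E423P was seen for 4 of the 4 ND transcripts, against 77.8% of all 9. Without mt:ND5 the ND share was 4% in E423P (2 of 50 errors) and 8.19% in WT (19 of 232), a smaller gap (Fisher's exact test, p = 0.389, adjusted p = 0.583).

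**Figure D1:**
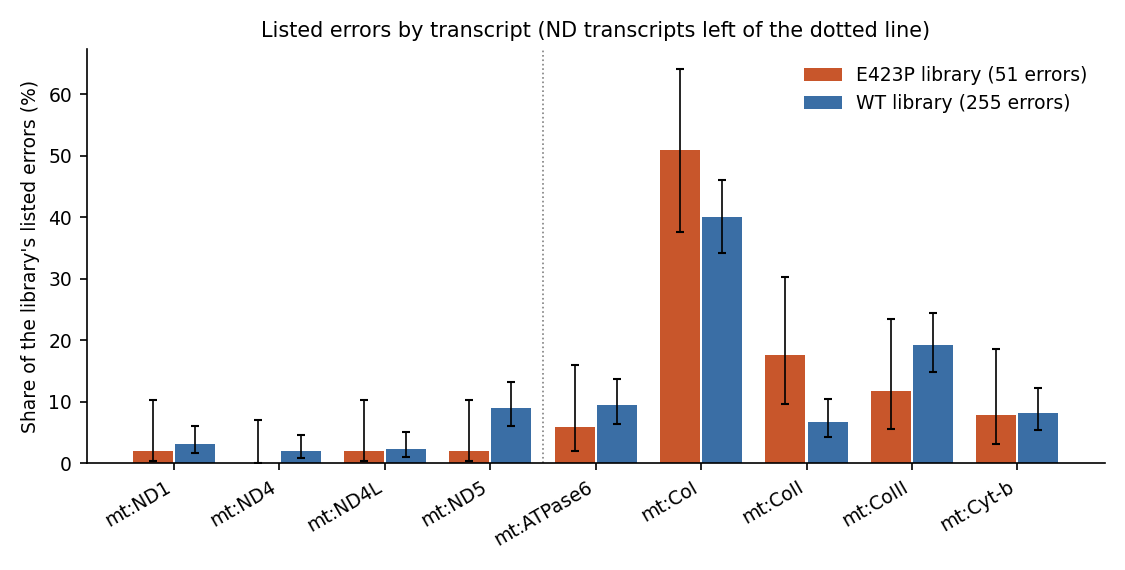
Share of each library's listed errors (y axis, percent) in each of the 9 transcripts with any listed error, for the E423P library (51 errors) and the WT library (255 errors). Error bars are 95% Wilson intervals. The 4 ND transcripts stand left of the dotted line, and mt:ND5, at 1.96% in E423P and 9.02% in WT, has the widest gap among them.

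The median listed depth was lower in E423P than in WT for ND transcripts and for the other transcripts. Depth at listed ND positions was 107, 111 and 154 in E423P, and ran from 103 to 383 in WT with a median of 211. At the other transcripts it ran from 102 to 294 in E423P (median 158.5) and from 105 to 790 in WT (median 309). No ND position was thus listed at a depth of 100 or less in either library. The errors of a listed combination made up at most 0.935% of the depth in E423P and 0.971% in WT for ND transcripts. For the other transcripts the highest values were 0.980% and 0.968%. Whether a filter set these upper values is not stated. At the 13 positions that both lists give with an identical change, the E423P depth was between 30.4% and 89.8% of the WT depth, with a median of 39.7%. At that median, the lowest depth in the E423P list, 102, corresponds to a WT depth of 257. Among the WT combinations of position and substitution, 7 of 38 in ND transcripts (18.4%) and 124 of 185 in the other transcripts (67.0%) reached it.

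With the WT list limited to a depth of 257 or more, a limit chosen after seeing the data, the ND share in WT was 5.70% (9 of 158 errors), against the 5.88% of E423P (Fisher's exact test, p = 1, adjusted p = 1). The difference in ND share, which was -10.6 percentage points (E423P minus WT) over all errors, was 0.19 points after this step. The limit leaves fewer errors to compare, and it was applied to the WT list only. It takes the depth ratio from 13 positions, most of them in mt:CoI and 1 in an ND transcript. At that ND position, C368T of mt:ND1, the E423P depth was 40.2% of the WT depth. These positions had to be deep enough in E423P to be listed there, so their ratio may lie above that of other positions. Total coverage, 320614 bases in E423P and 1345044 in WT, was not used for the limit. With both lists limited to a depth of 150 or more, a planned step, the gap did not shrink. The ND share was then 3.45% in E423P (1 of 29 errors) and 16.4% in WT (37 of 225). That difference was -13.0 points (Fisher's exact test, p = 0.0928, adjusted p = 0.278). The share in WT depends on the limit chosen, and whether depth bears on the gap was not tested.

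**Figure D2:**
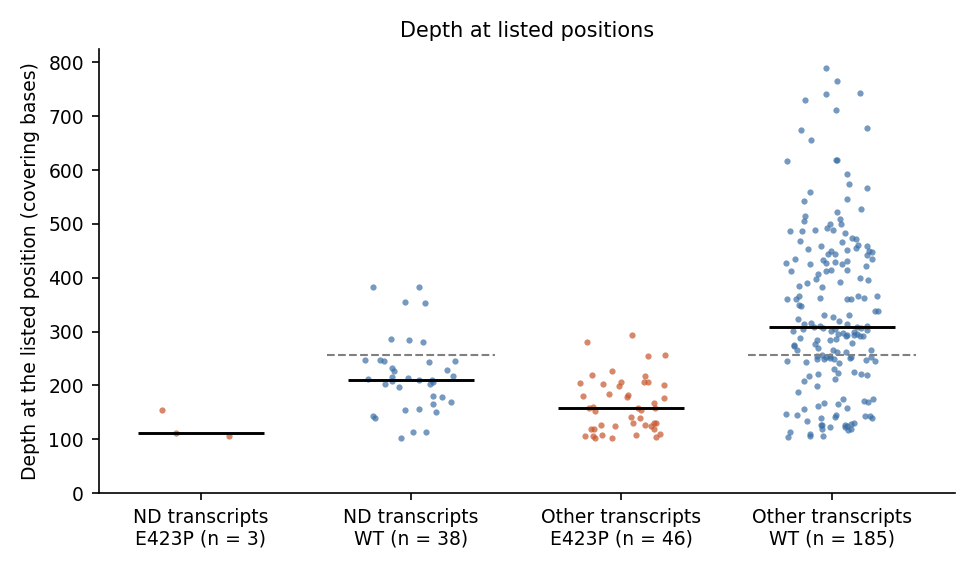
Depth at each listed combination of position and substitution (y axis, covering bases), for ND and other transcripts in each library. Points are combinations, solid bars are medians (111 and 211 in ND transcripts for E423P and WT, 158.5 and 309 in the other transcripts), and the dashed line marks the WT depth of 257. Most WT points of ND transcripts lie under the dashed line.

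Among the antiporter-like subunits, mt:ND5 (FBgn0013684, transcript FBtr0433501, BDGP6 mitochondrion_genome 6409 to 8125, minus strand, 1717 bases) carried most of the ND errors. Its only E423P error was C413T, at a depth of 107 (0.935% of the depth, 95% Wilson interval 0.165 to 5.10). The nearest WT positions were G404T at a depth of 245 and C443T at a depth of 215. C413T itself was not listed in WT. The 23 WT errors of mt:ND5 fell on 22 combinations between positions 392 and 1030, which is 22.8% to 60.0% of the transcript, at depths from 114 to 280 (median 210). Outside this stretch no mt:ND5 error was listed in WT, and whether the ends were covered is not known.

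The mt:ND5 errors of WT were grouped into runs, taken as positions at most 30 bases apart, which spanned 13 to 87 bases. This limit was not set against the spacing of positions placed at random, which it could also join. A run of 30 bases from position 1001 to 1030 held 6 errors, of which 5 were C-to-T. These were C1001T, C1007T, C1010T and C1013T, and C1010T was the only mt:ND5 change with 2 errors, at 0.952% of a depth of 210 (95% Wilson interval 0.262 to 3.41). A run from position 443 to 464 held 5 errors at depths of 210 to 228, and one from 560 to 646 held 5 errors at depths of 143 to 212. Runs were described after the positions were seen and were not tested, and their placement also depends on which positions were covered.

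mt:ND4 (FBgn0262952, FBtr0433500, 8207 to 9545, minus strand, 1339 bases), another antiporter-like subunit, had 0 listed errors in E423P and 5 in WT. The 5 WT changes were G399T, C416T, C632T, G853T and C856T, at depths of 140, 103, 114, 154 and 156. Their median of 140 is the lowest among the 4 listed ND transcripts in WT, where mt:ND5 had 210, mt:ND4L 243 and mt:ND1 320. Single errors there were 0.641% to 0.971% of the depth. For a single error this value follows from the depth alone. The upper value, the highest of any ND position, thus restates the lowest listed ND depth, 103.

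mt:ND4L (FBgn0013683, FBtr0100880, 9545 to 9835, minus strand, 291 bases), a small membrane subunit, directly adjoins mt:ND4, and the annotated genes overlap by 1 base. Its E423P error was G200T, at a depth of 111 (0.901%, 95% Wilson interval 0.159 to 4.93). It is the only ND error of E423P that was not C-to-T. In WT, mt:ND4L held 6 errors on 5 combinations between positions 170 and 271, at depths from 165 to 354. They included G179A, with 2 errors at 0.917% of a depth of 218 (0.252 to 3.28), and G170T. Of the 3 ND changes with more than 1 error in WT, the others being C386T and C1010T, this was the only one that was not C-to-T. Per kilobase of transcript, mt:ND4L had 20.6 listed errors in WT, mt:ND5 13.4, mt:ND1 8.52 and mt:ND4 3.73. This order is not an order of error rates, since coverage by transcript was not analysed here.

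mt:ND1 (FBgn0013679, FBtr0433499, 11721 to 12659, minus strand, 939 bases), the quinone-site subunit, held the only ND change listed in both libraries. C368T was listed 1 time in E423P at a depth of 154 (0.649%, 95% Wilson interval 0.115 to 3.59) and 1 time in WT at a depth of 383 (0.261%, 0.0461 to 1.46). With 1 error in each library, no comparison was made at this position. In WT, 7 of the 8 mt:ND1 errors fell within 45 bases, from position 368 to 412. Over these bases the listed depth was 383 at C368T and C377T, 355 at C386T, 285 at A402G and 248 at C412T. C386T had 3 errors, 0.845% of the depth (0.288 to 2.45), and no ND change had more. At listed ND depths of up to 383, a count above 3 would exceed 0.980% of the depth, the highest value in either list. The remaining WT error, C698T, lay at a depth of 180.

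**Figure D3:**
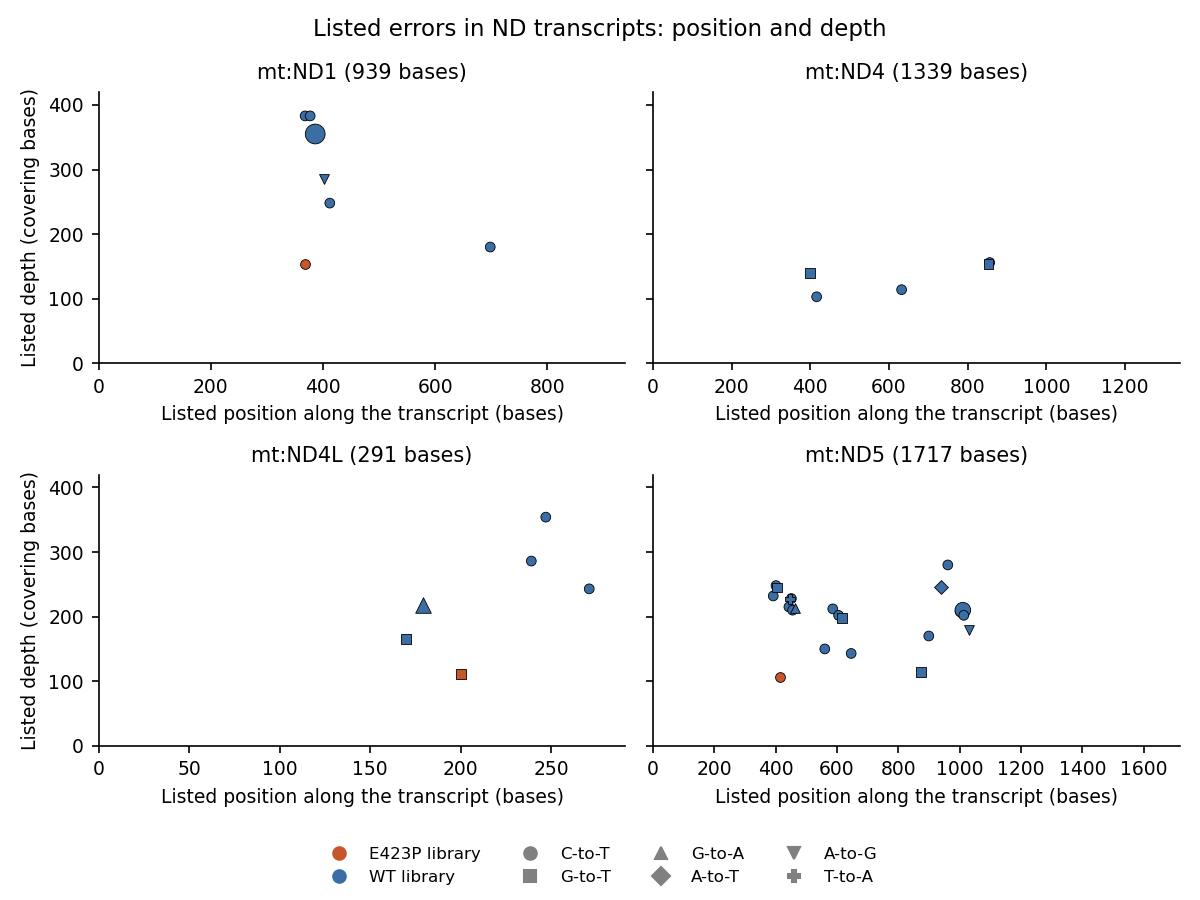
Listed ND errors by position along the transcript (x axis, bases) and depth (y axis, covering bases), with 1 panel per transcript running over its whole length. Colour marks the library, the marker shape the substitution, and larger markers stand for 2 or 3 errors. The 3 E423P points lie at depths of 107 to 154, and mt:ND4 has WT points only, at depths of 103 to 156.

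C-to-T, as listed, was the most frequent change in ND transcripts, as it was elsewhere. If bases are listed along the plus strand and not in transcript orientation, a C-to-T label would stand for G-to-A in the ND RNA. Labels would then not match between ND and other transcripts. It made up 2 of the 3 ND errors in E423P and 29 of the 42 in WT (69.0%, 95% Wilson interval 54.0 to 80.9), and no difference was detectable (odds ratio 0.899, 95% exact interval 0.0431 to 56.9; two-sided Fisher's exact test, p = 1, and adjusted p = 1). An interval this wide leaves nearly any difference undetectable with 3 errors. In E423P, C-to-T made up 66.7% of the errors in ND transcripts and 62.5% in the other transcripts (30 of 48; p = 1 by Fisher's exact test, adjusted p = 1). In WT it made up 69.0% of the errors in ND transcripts and 56.3% in the other transcripts (120 of 213), and this gap was within counting error (odds ratio 1.73, 95% exact interval 0.815 to 3.83; two-sided Fisher's exact test, p = 0.170, and adjusted p = 0.255). The gap was 12.7 percentage points, against 5.51 without A-to-T errors (p = 0.586 by Fisher's exact test, 0.878 adjusted) and 18.6 without mt:CoI (p = 0.0457, 0.0914 adjusted).

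The other 13 WT errors in ND transcripts fell on 5 further substitutions. G-to-T was listed 6 times (14.3%, 95% Wilson interval 6.72 to 27.8) in ND transcripts and 25 times (11.7%, 8.08 to 16.8) in the others. A-to-T was listed 1 time in ND transcripts (2.38%, 0.422 to 12.3), in mt:ND5 as A940T, and 29 times in the others (13.6%, 9.65 to 18.9), and this difference was not tested. G-to-A had 3 errors in ND transcripts and 8 in the others, A-to-G had 2 and 6, and T-to-A had 1 and 11. T-to-C and G-to-C had 0 errors in ND transcripts, with 6 and 7 in the others. Changes to T made up 36 of 42 WT errors in ND transcripts (85.7%) and 174 of 213 in the others (81.7%). The coverage of each base by transcript was not analysed here, so these are shares of errors and not rates per base.

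**Figure D4:**
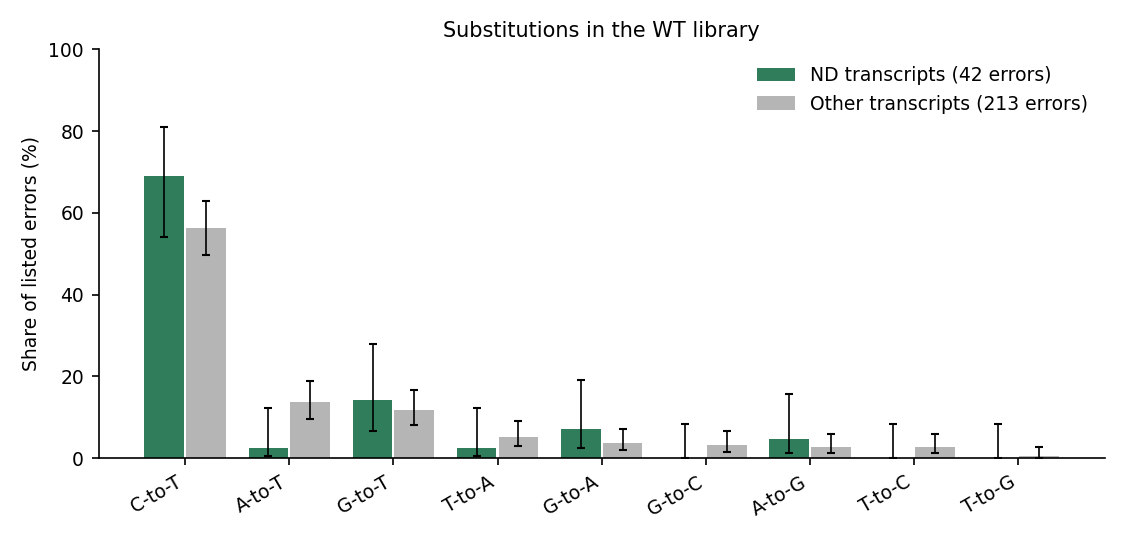
Share of the WT library's listed errors (y axis, percent) by substitution, for ND transcripts (42 errors) and the other transcripts (213 errors), with 95% Wilson intervals. C-to-T leads in both sets, at 69.0% and 56.3%, and A-to-T is at 2.38% in ND transcripts and 13.6% in the others.

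The reading frame of the errors was compared through the remainder of the listed position divided by 3, since each of the 13 protein-coding sequences is annotated from the first base of its transcript. If positions run from the first base of the transcript, remainder 2 is the third base of a codon with a start at 0. With a start at 1 it is the second base. That direction was not checked for the minus strand. Counted from the other end, remainder 2 would not be the same codon base in all ND transcripts, since not all their lengths are multiples of 3. In E423P all 3 ND errors had remainder 2, against 15 of 48 errors (31.3%) in the other transcripts (Fisher's exact test, p = 0.0392, adjusted p = 0.106). In WT, 27 of 42 ND errors had remainder 2 (64.3%, 95% Wilson interval 49.2 to 77.0), against 90 of 213 (42.3%, 35.8 to 49.0) in the other transcripts, an odds ratio of 2.45 (95% exact interval 1.18 to 5.27; two-sided Fisher's exact test, p = 0.0108, and adjusted p = 0.0651). Neither passed after adjustment over the 6 single tests. When repeated errors of a kind at a position were reduced to 1, the WT shares were 60.5% in ND transcripts and 42.2% in the others (Fisher's exact test, p = 0.0488, adjusted p = 0.146). With the libraries added together the shares were 66.7% in ND transcripts and 40.2% in the others (Fisher's exact test, p = 0.00112, adjusted p = 0.00672), a sum in which 42 of the 45 ND errors are from WT. With repeats reduced to 1 over that sum, a step added after seeing the data, they were 62.5% and 39.7% (Fisher's exact test, p = 0.00914, adjusted p = 0.0548).

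Remainder 0 in WT held 2 of 42 ND errors (4.76%, 95% Wilson interval 1.32 to 15.8), A402G in mt:ND1 and G399T in mt:ND4, and 42 of 213 errors (19.7%, 14.9 to 25.6) in the other transcripts. If positions start at 1 and run from the first base of the transcript, these are the third codon bases. Their share was then lower in ND transcripts (Fisher's exact test, p = 0.0232, adjusted p = 0.139), the opposite of the direction under a start at 0. None of the 29 C-to-T errors in ND transcripts had remainder 0, 8 had remainder 1 and 21 had remainder 2. Of the 120 C-to-T errors in the other transcripts, 13 had remainder 0, 44 had remainder 1 and 63 had remainder 2. Among C-to-T errors alone, remainder 2 made up 72.4% in ND transcripts and 52.5% in the others in WT (Fisher's exact test, p = 0.0618, adjusted p = 0.185), a split chosen after seeing the data. By transcript, remainder 2 held 15 of 23 WT errors in mt:ND5, 6 of 8 in mt:ND1, 4 of 6 in mt:ND4L and 2 of 5 in mt:ND4. Among the other transcripts it held 14 of 24 in mt:ATPase6, 45 of 102 in mt:CoI and 19 of 49 in mt:CoIII. In mt:Cyt-b it held 8 of 21, and in mt:CoII 4 of 17. The ranges of the ND and the other transcripts thus overlap. The frequency of each base at each remainder among the covered positions was not analysed here, so its part in these shares was not tested.

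**Figure D5:**
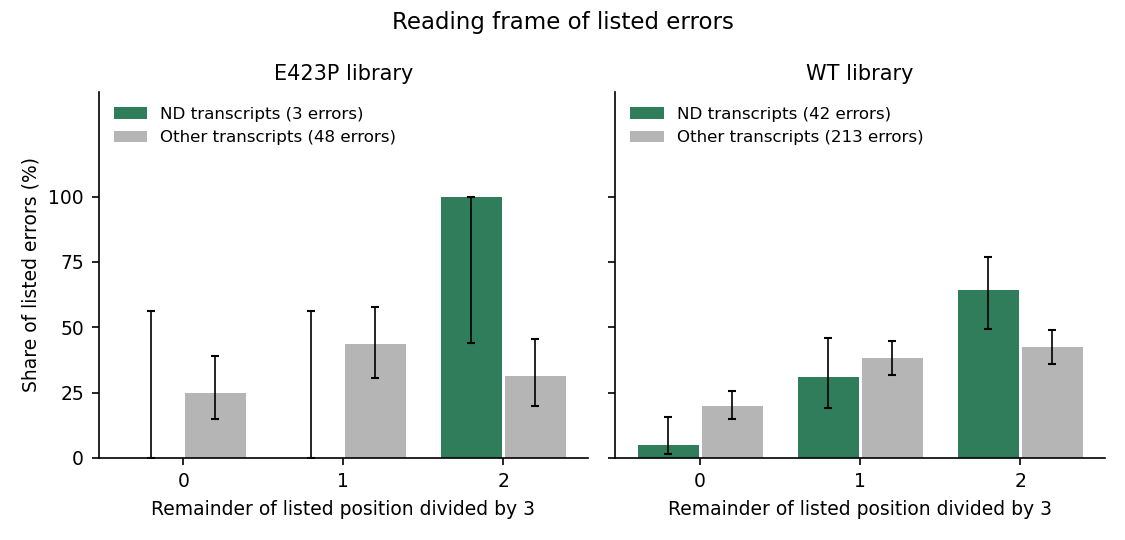
Share of listed errors (y axis, percent) by the remainder of the position divided by 3 (x axis), for ND and other transcripts in the E423P library (left) and the WT library (right), with 95% Wilson intervals. Remainder 2 holds all 3 ND errors in E423P and 64.3% of the 42 in WT.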

How the data were processed

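Mitochondrial RNA of whole adult flies was made into Illumina TruSeq libraries, per the labels' protocols. FastQC, cutadapt, Bowtie2 and SAMtools are named in the submitters' processing notes; the error caller, its filters and the genome build are not given in the sources used here. The deposited lists hold, per the file headers, the depth and the count of errors at each listed position, and the deposited coverage files hold summed counts of covered bases. Every line was taken as 1 error, since repeated errors at a position take a line each, in all cases checked. A deposited table of counts per gene was used only for gene coordinates and lengths, because the names of 2 columns of sample values fit none of the labels. Transcripts were matched to genes in Ensembl release 115 (BDGP6), whose coordinates equal those of that table for all 7 ND genes.

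Shares were compared by two-sided Fisher's exact tests, with Benjamini-Hochberg adjustment over the 6 single tests or the 9 listed transcripts. Adjustment over the ND transcripts alone had been planned and was replaced. The planned test of codon positions became one of the remainder of the position, and those of amino acid changes and neighbouring bases were not run, since no transcript sequence was used here. The planned remainder assumes counting from 0 at the first base of the transcript. The 7 genes are all named; named positions are those with 2 or more errors, those in both libraries and all of E423P, and others illustrate runs and were chosen after their values were seen. Genes and comparisons were chosen with earlier results of these data known. Calculations used Python 3.11.15, numpy 2.4.6, pandas 2.3.3, scipy 1.17.1 and matplotlib 3.10.9. The tests of the ND share and of the 9 listed transcripts were tried on simulated data with errors drawn independently. The C-to-T and remainder tests were not tried in this way.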

Additional observations from a re-analysis of the deposited data

How the results depend on the processing

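Settings were changed 1 at a time. Among 73 recomputed values, 60 had the direction and the side of the 0.05 adjusted p threshold reported, 2 newly passed it and 11 changed direction. No result had passed it in the main setting, so keeping its side means only staying above it. The recomputations reuse the same lists, so the 60 are not separate evidence of stability. Differences are in percentage points, E423P minus WT or ND minus other transcripts. The gap in ND share was -4.19 to -15.5 in 8 recomputations and 0.186 with the WT depth limited to 257 or more; over all 9, adjusted p in Fisher's exact test ran from 0.131 to 1. The remainder 2 difference in WT was 25.3 without mt:ND4 (Fisher's exact test, adjusted p = 0.0405) and 26.4 with the libraries added (adjusted p = 0.00672). In the same exact test it was 18.4 with repeats at a position reduced to 1 (adjusted p = 0.146), 19.5 without mt:ND1 (0.174) and 20.9 without mt:ND5 (0.333). Counting from 1 at the first base of the transcript instead, the third codon base is remainder 0. The difference was then -15.0 in WT (p = 0.0232 by Fisher's exact test, 0.139 adjusted) and -25 in E423P (p = 1). The C-to-T share of ND errors turned to 29.7 at depths of 150 or more and to 27.8 without mt:ND4L. The C-to-T difference between ND and other transcripts in E423P turned to -1.43 without shared positions, -12.5 without mt:ND1 and -12.5 without mt:ND5, and -3.10 without A-to-T errors; each rests on 3 ND errors or fewer. The mt:ND4L share turned to 0.192 without shared positions and 0.0784 without mt:CoI. The depth limit of 257, counting from 1, C-to-T errors alone, the sum of libraries with repeats reduced to 1 and leaving out A-to-T errors were chosen after seeing the data. The causes of these shifts were not tested. Amino acid changes were not computed under any setting. No paired analysis was possible because only 1 error list per genotype was analysed, and for the same reason no replicate was left out.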
